A study of Rattus norvegicus with 43 samples.

Results

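The cytoplasmic ribosomal protein genes measured here were those whose symbol names a protein of the large (Rpl) or small (Rps) ribosomal subunit, together with Rpsa, Rplp0, Rplp1 and Rplp2; symbols of pseudogenes and of -like copies were left out. The rule found 68 genes among the 14506 gene symbols on the array, 42 of the large subunit and 26 of the small subunit, and each was read from its probe set with the highest mean over the 43 arrays. The rats were Sprague Dawley and 11 weeks old, in a series on the Western diet, and each array held the distal colon RNA of a different rat; the labels do not say what each diet was made of or how CON differed from the rest. The 6 diets are given in the labels as codes. HAMS (8 rats) and HAMSB (9 rats) were read as diets with high-amylose maize starch and with its butyrylated form, HAW (8 rats) and LAW (6 rats) as high- and low-amylose wheat, LAMS (7 rats) as low-amylose maize starch, and CON (5 rats) as the control; apart from the control, these readings rest on what is known of the study. The labels give no mutation or transgene for any group. The arrays gave log2 expression values, in which a difference of 1 is a doubling.

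A ribosome is built from a small subunit, which holds the mRNA and reads its codons, and a large subunit, which joins the amino acids and carries the tunnel through which the new chain leaves. Ribosomal protein mRNAs are among the most abundant of a cell, and in mammals they start with a run of pyrimidines, the terminal oligopyrimidine (TOP) tract, through which mTORC1 signalling and the RNA-binding protein Larp1 control how much of each mRNA is translated. Dividing cells, such as those of intestinal crypts and of lymphoid follicles, make many ribosomes. Whole colon wall holds epithelium, smooth muscle, connective tissue and lymphoid tissue together, so that a lower level in such bulk tissue can mean fewer cells of a type or less RNA per cell, which cannot be told apart.

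Many start sites of these genes carry the sequence feature that the family is known for. RefSeq promoters (build GRCr8) were matched by symbol for 58 of the 68 genes. In 23 of them (39.7%) the annotated start base was a C followed by 4 or more C or T, against 2.63% of all 33469 promoters in the same table. With the tract allowed to begin anywhere within 10 bases before to 15 bases after the start, the shares were 75.9% of the ribosomal protein promoters and 28.9% of all promoters. Windows of 15 bases on either side of the start are shown for the 8 genes that rose in HAMS against LAMS, for Rpl37a, Rpl38 and Rpl39, which passed in other fits, and for a stalk protein, Rplp0, with the tract that begins at the annotated start base in capitals.
Rpl35, chr3:43165907-43165936, minus strand: cgccccttcctctttCTCTCgaaccgggcg
Rpl35a, chr11:81235007-81235036, minus strand: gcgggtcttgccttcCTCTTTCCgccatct
Rpl37a, chr9:81748076-81748105, plus strand: gcatgcccgttgcgtCTCTTCCTCTTCggg
Rpl39, chrX:121195882-121195911, minus strand: tcttctaatcgcgttCTTCCggcctgtcct
Rplp0, chr12:46718376-46718405, minus strand: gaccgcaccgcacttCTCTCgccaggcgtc
Rps27, chr2:177964592-177964621, minus strand: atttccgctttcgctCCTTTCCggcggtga
Rpl38, chr10:100200420-100200449, plus strand: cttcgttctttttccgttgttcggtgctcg
Rpl13, chr19:68062499-68062528, plus strand: ctttgcggtgcccgatcctttccgctcggc
Rpl36a, chrX:102059434-102059463, plus strand: ccgcctataaacttccgttgctgctctagc
Rps16, chr1:92770643-92770672, plus strand: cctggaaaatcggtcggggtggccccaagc
Rps2, chr10:14251833-14251862, plus strand: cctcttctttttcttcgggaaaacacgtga
Rps23, chr2:23814502-23814531, plus strand: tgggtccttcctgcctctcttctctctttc
Of the 8 genes that rose in HAMS against LAMS, 3 had a tract that begins at the annotated start base (Rpl35, Rpl35a and Rps27) and 5 had none there. None of the last 6 windows has one at that base, and the annotated start can be some bases away from the one used.

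Letters of known factor sites were searched in the whole promoter, 250 bases before to 50 after the start, on both strands. CGGAAG, the core letters of ETS factor sites, was present in 55.2% of the ribosomal protein promoters, against 16.6% of all promoters. AAGATGG, the core letters of YY1 sites, was in 13.8% and 7.01%. TATAAA within the 50 bases before the start, read on the given strand, was in 6.9% of the ribosomal protein promoters, against 2.26% of all promoters. The promoter of Rpl35, a gene that passed the test in both HAMS and HAMSB against LAMS, is shown with its 3 copies of CGGAAG, 247, 127 and 28 bases before the start, and its tract in capitals.
Rpl35, chr3:43165907-43166171, minus strand: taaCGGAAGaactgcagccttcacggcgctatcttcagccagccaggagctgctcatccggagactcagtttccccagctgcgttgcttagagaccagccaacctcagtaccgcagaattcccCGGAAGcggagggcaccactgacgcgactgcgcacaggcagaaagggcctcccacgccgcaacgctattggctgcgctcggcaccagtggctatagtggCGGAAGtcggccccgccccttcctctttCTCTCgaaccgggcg

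All 68 genes passed the filter on low signal, a median over the arrays of at least 4.79, which left 10828 genes in the test. As a description of the signal, the median level of the large subunit genes was 10.90 and that of the small subunit genes 10.94, against 7.08 over all genes tested. Levels over 11 were reached by 32 genes. The highest signals were those of Rps29 (12.47), Rpl28 (12.28) and Rps28 (12.24), and the lowest were those of Rps27 (6.54), Rpl15 (6.97) and Rps24 (7.60). Probe sets bind their targets unequally, so these values do not rank the amounts of mRNA. Some further genes that RefSeq lists under the rule, Rps27a and Rpl26 among them, had no probe set of a single symbol here and were not analysed.

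Ribosomal protein genes have many processed pseudogenes, and the signal of near-identical copies may be shared by short probes, which leaves the level of each gene uncertain. In all, 249 probe sets carried the symbol of 1 of the 68 genes, 53 genes had several, and Rpl21 had 21. The 181 further probe sets had a median signal 0.32 lower than the one used for their gene, and the median correlation with it within diets was 0.98. For 179 of the 181 it was above 0.5.

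The spread between rats of the same diet was about that of other genes. The median standard deviation (SD) within diets was 0.22 for the large and 0.24 for the small subunit genes, against 0.24 over all genes. Rps19, the gene most often mutated in the human Diamond-Blackfan anaemia, varied most (SD 0.42), followed by Rps15a (0.38) and Rps13 (0.37). Within diets these genes also differed between array file name styles (described further on), with style B above style A by 0.89, 0.75 and 0.79. Their SD includes that difference. Rps2, at the entry of the mRNA channel, varied least (0.09), with Rpl13a (0.12) and Rps7 (0.13).

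Both subunits moved together from array to array. As a description over the 43 arrays, the mean of the large and the mean of the small subunit genes correlated at r = 0.96 after the diet means were taken out. Single genes followed the family unequally: the correlation with the mean of the other members was 0.90 for Rpl27 and 0.89 for Rps15a, but 0.05 for Rps3, 0.15 for Rpl38, 0.17 for Rpl30 and 0.20 for Rpl4. All of these points share the arrays and their normalisation.

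Averaged over each subunit, the diets with maize high-amylose starch had the highest means, and the differences between diets were about as large as the spread between rats. The large subunit mean was 10.90 ± 0.16 in HAMS (SD, n = 8), 10.92 ± 0.11 in HAMSB (n = 9), 10.73 ± 0.16 in HAW (n = 8), 10.72 ± 0.11 in LAW (n = 6), 10.78 ± 0.16 in LAMS (n = 7) and 10.82 ± 0.17 in CON (n = 5). The small subunit mean was 10.80 ± 0.22 in HAMS, 10.80 ± 0.12 in HAMSB, 10.58 ± 0.20 in HAW, 10.55 ± 0.11 in LAW, 10.63 ± 0.23 in LAMS and 10.69 ± 0.17 in CON. The ranges of all 6 diets overlapped for both subunits. HAMS and HAMSB alone had no array of file name style A (described further on), in which most members were lower. In style B the large subunit mean ran from 10.92 to 10.94 in LAMS, 10.64 to 11.12 in HAMS and 10.81 to 11.02 in HAMSB. The small subunit mean there ran from 10.81 to 10.91, 10.42 to 11.10 and 10.72 to 10.95. In style C the large subunit mean ran from 10.89 to 10.98 in CON and 10.72 to 11.07 in HAMSB.

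**Figure D1:**
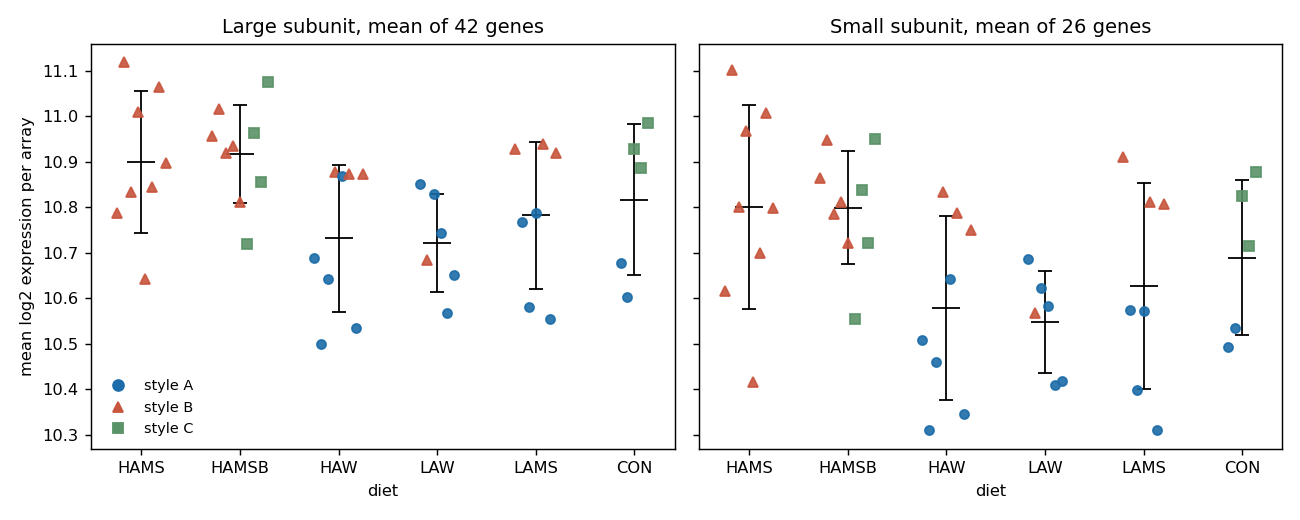
Mean log2 expression of the 42 large (left) and 26 small (right) subunit genes on each array, by diet, with the mean and SD of each diet as bars. Marker shapes give the style of the array's file name, and the diets overlap in both panels.

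Counted gene by gene, 31 of the 68 genes had their highest diet mean in HAMSB and 23 in HAMS, while CON held 6, LAMS 5, LAW 3 and HAW 0. Over all genes tested the shares were 20.8% in HAMSB, 17.7% in HAMS, 29.6% in CON, 7.99% in LAMS, 19.7% in LAW and 4.24% in HAW. The lowest mean was in LAW for 27 genes and in HAW for 20, against 11.6% and 8.03% of all genes. HAMS held the lowest mean of 2 members, but of 40.5% of all genes. These diet means were not adjusted for the file name style.

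The arrays fell into 3 styles of file name in the labels, which were not spread evenly over the diets, and many ribosomal protein genes differed between the styles. Style A joins a lower-case diet code and a number, style B puts the diet code in capitals before the number, and style C puts the number before the code; what the styles stand for is not given in the sources used here. HAMS had 8 arrays of style B, HAMSB 5 of B and 4 of C, HAW 5 of A and 3 of B, LAW 5 of A and 1 of B, LAMS 4 of A and 3 of B, and CON 2 of A and 3 of C. With the diets in the model, 39 of the 68 genes differed between styles (limma, adjusted p under 0.05), 24 of the large and 15 of the small subunit, against 42.7% of all genes tested. The median difference of style B from style A was 0.23 over the ribosomal protein genes and −0.06 over all genes, and that of style C from style A was 0.19 and −0.05. In 33 of the 39 genes both B and C were above A.

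For some members the difference between name styles was large. Rps19 was 0.89 higher in style B than in style A, Rpl41 0.83, Rps13 0.79, Rps21 0.77, Rps15a 0.75 and Rpl39, a small protein of the exit tunnel, 0.68. Rpl4 and Rps3 ran the other way, at −0.27 and −0.21. Rpl38 was 0.08 lower in style B and 0.68 lower in style C than in style A. Every diet comparison was also fitted with the style as a block, and the blocked counts of members stand beside the unblocked ones.

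**Figure D2:**
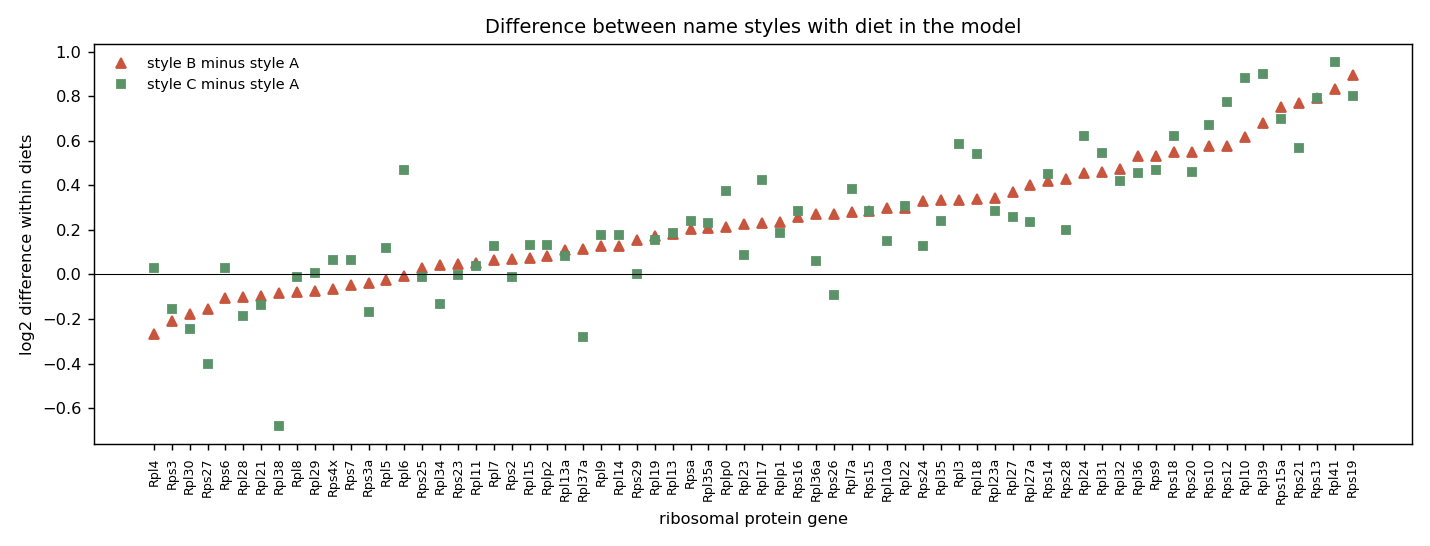
Difference on the log2 scale of name style B (triangles) and style C (squares) from style A for each of the 68 genes, with the diets in the model. Rps19 and Rpl41 lie at 0.89 and 0.83 for style B, and Rpl4 and Rps3 lie below 0.

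A moderated F test over the 6 diets passed for 19 of the 68 genes, 13 large and 6 small, while 31% of all genes passed. Rpl36a (adjusted p = 0.00445), Rpl38 (0.00567) and Rps29 (0.00659) had the smallest values in limma. A block for name style left 9 members and 12.9% of all genes. Those were Rpl10, Rpl34, Rpl37a, Rpl38, Rpl39, Rpl41, Rpl6, Rps27 and Rps3.

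The comparison of HAMS with LAMS asks what high-amylose maize starch changed, and 8 ribosomal protein genes rose, 4 in each subunit, while 0 fell. Among all genes 2.13% rose and 12.1% fell, 14.2% together. Of the 68 genes 54 had a positive difference, against 4040 of the 10828 genes tested. The median was 0.09 for the large and 0.18 for the small subunit, against −0.09 over all genes. The genes that rose belong to different sites of the ribosome, and their differences were between 1.13 and 1.4 times on the linear scale.

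Of the large subunit, Rpl35, which stands at the mouth of the exit tunnel where the signal recognition particle docks, ran from 10.79 through a median of 11.19 to 11.67 in HAMS rats, against 10.32, 10.82 and 11.17 in LAMS rats. The groups overlapped. It rose by 0.44 ± 0.12 (SE; adjusted p = 0.0195 with limma). Rpl35a, mutated in some families with Diamond-Blackfan anaemia in people, rose by 0.41 ± 0.13, and Rpl36a, close to the exit site of the tRNA, by 0.39 ± 0.13. Rpl13 of the large subunit rose by 0.36 ± 0.12.

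Of the small subunit, Rps27, a zinc finger protein, ran from 6.35 through 6.79 to 7.84 in HAMS rats, against 6.14, 6.35 and 6.71 in LAMS rats. Its groups overlapped, and it rose by 0.49 ± 0.17 (adjusted p = 0.0491 with limma). Rps23, at the decoding centre, ran from 10.75 through 11.12 to 11.41 in HAMS and from 10.50 through 10.68 to 11.06 in LAMS rats, and rose by 0.37 ± 0.12 (adjusted p = 0.0351). Rps16, whose tail reaches the tRNA in the peptidyl site, rose by 0.35 ± 0.11, and Rps2 by 0.17 ± 0.06. All 68 genes had overlapping groups, against 0.711% of all genes without overlap, and the adjusted p-values of the 8 lay between 0.0195 and 0.0491 in limma.

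**Figure D3:**
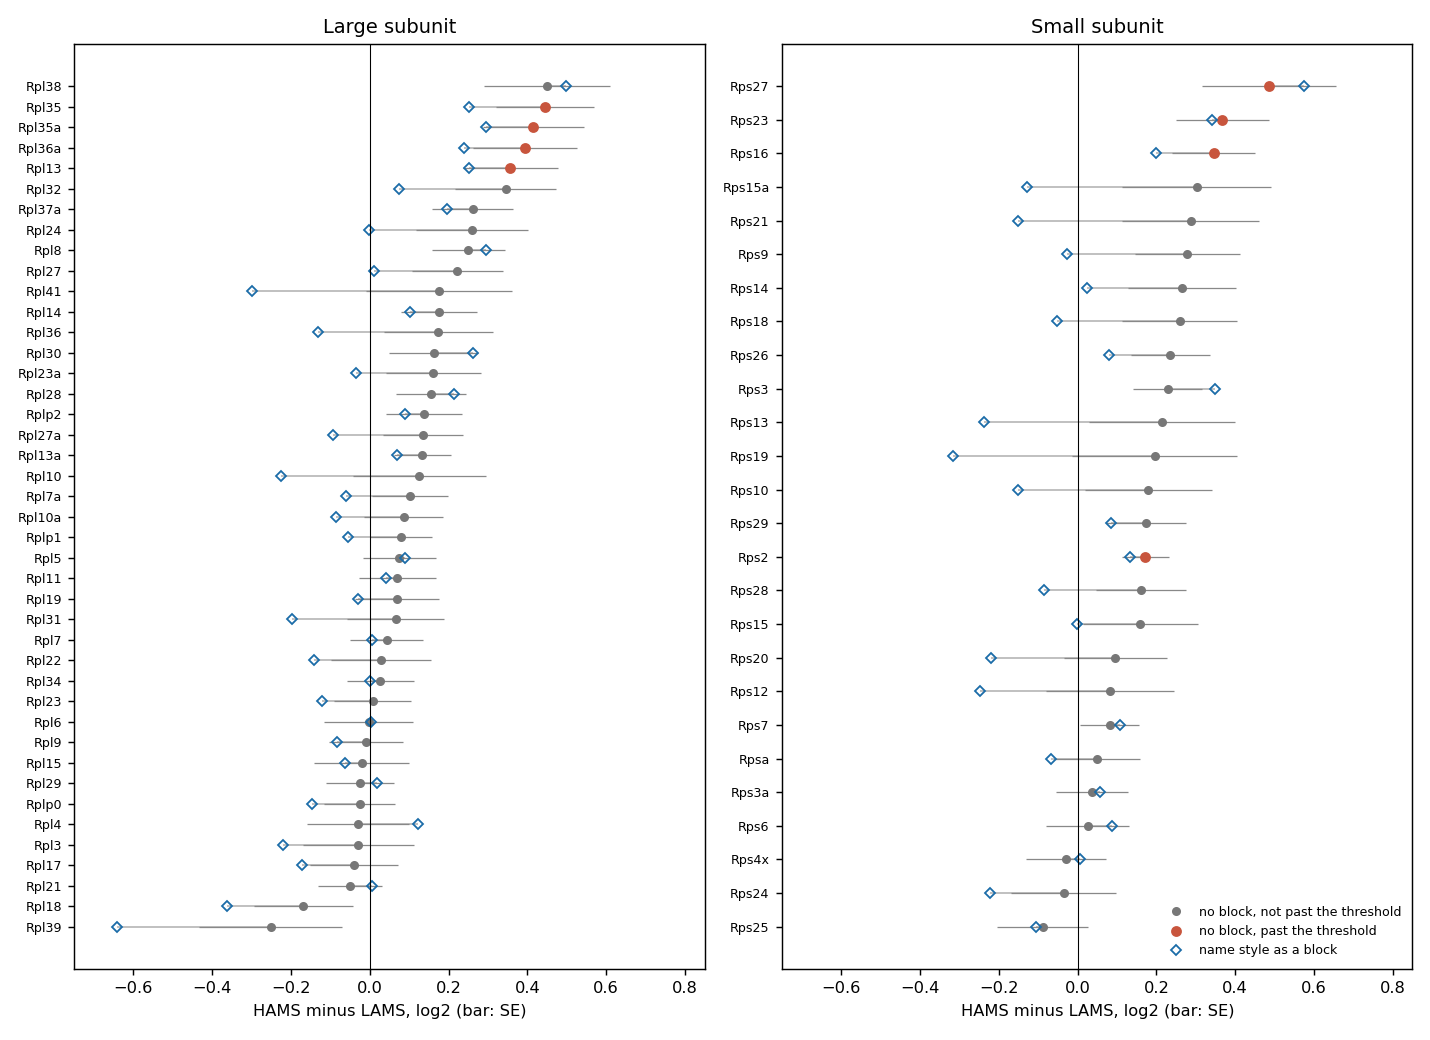
HAMS minus LAMS on the log2 scale for each of the 42 large (left) and 26 small (right) subunit genes, with bars of 1 SE. Filled circles are without a block, red where the gene passed the threshold (8 genes), and open diamonds are with the name style as a block, for which the median of the 68 genes is 0.00.

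When the name style was a block, 3 members rose and 3 fell in HAMS against LAMS, against 2.41% and 6.38% of all genes, and the median over the 68 genes was 0.00. Rps27 (0.57), the only one of the 8 genes above that still passed, rose together with Rpl38 (0.50) and Rps3 (0.35), a protein of the mRNA entry site. Rpl39 (−0.64), Rpl18 (−0.36) and Rpl41 (−0.30) fell in that fit. Among arrays of style B alone, 8 HAMS and 3 LAMS rats, 0 members passed in limma (12 with p under 0.05 before adjustment), the median was −0.05, and 0.139% of all genes rose and 1.06% fell. In these arrays Rps27, the member with the lowest signal, ran from 6.35 to 7.84 in HAMS and from 6.14 to 6.32 in LAMS rats. Rpl35 ran from 10.79 to 11.67 and from 10.82 to 11.17. The share of all genes whose ranges lie apart on these 8 and 3 arrays was not counted.

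The comparison of HAMSB with LAMS, which shares the LAMS arrays with the one above, asks about the butyrylated starch. In it 4 genes rose and 0 fell, against 2.2% and 4.65% of all genes, 6.84% together. The median difference was 0.14 for the large and 0.18 for the small subunit, against 0.00 over all genes.

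Rpl38, whose loss in mice changes the translation of Hox mRNAs, ran from 10.07 through 11.27 to 11.69 in HAMSB rats, against 10.20, 10.43 and 10.77 in LAMS rats. It rose by 0.61 ± 0.16, or 1.53 times (adjusted p = 0.0173 with limma), although the HAMSB range enclosed that of LAMS. Within HAMSB the name styles stood apart: the 5 arrays of style B ran from 11.27 to 11.69, and the 4 of style C from 10.07 to 11.07. The share of all genes whose styles lie apart in HAMSB was not counted, and 42.7% of all genes differed between styles within diets. The LAMS arrays ran from 10.20 to 10.54 in style B and from 10.21 to 10.77 in style A.

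Rpl36a rose by 0.45 ± 0.13 in HAMSB, with a range of 10.25 to 11.17 in HAMSB and of 10.09 to 10.53 in LAMS rats. Its HAMSB arrays also stood apart by name style, from 10.90 to 11.17 in style B and from 10.25 to 10.82 in style C. Rpl35 rose by 0.38 ± 0.12, with 10.85 to 11.38 in HAMSB and 10.32 to 11.17 in LAMS rats. The styles of its HAMSB arrays overlapped, from 11.17 to 11.38 in B and from 10.85 to 11.20 in C. Rps29, a zinc-binding protein of the small subunit head, rose by 0.34 ± 0.10, with 12.43 to 12.95 and 12.13 to 12.51. Its HAMSB styles stood apart as well, from 12.75 to 12.95 in B and from 12.43 to 12.70 in C. The adjusted p-values of these 3 genes were 0.0316, 0.0467 and 0.0322 in limma. Only Rpl13 among the 68 genes had groups without overlap (0.545% of all genes had), from 10.89 to 11.25 in HAMSB and from 10.44 to 10.88 in LAMS rats, but its difference of 0.28 did not pass (adjusted p = 0.126).

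Blocked on name style, 2 members rose and 2 fell in HAMSB against LAMS, against 1.39% and 1.65% of all genes. The median was then 0.01 for the large and 0.04 for the small subunit, against 0.02 over all genes. Rpl38 (0.92) and Rpl37a (0.42) rose, while Rpl10 (−0.45) and Rpl6 (−0.37) fell. Rpl36a, Rpl35 and Rps29, which rose without the block, did not pass in that fit. In arrays of style B alone, 5 HAMSB and 3 LAMS rats, 7 rose and 8 fell, against 3.32% and 4.98% of all genes. Those that rose were Rpl30, Rpl36a, Rpl37a, Rpl38, Rps23, Rps27 and Rps29, and those that fell were Rpl10, Rpl18, Rpl3, Rpl39, Rpl6, Rps10, Rps13 and Rps19.

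**Figure D4:**
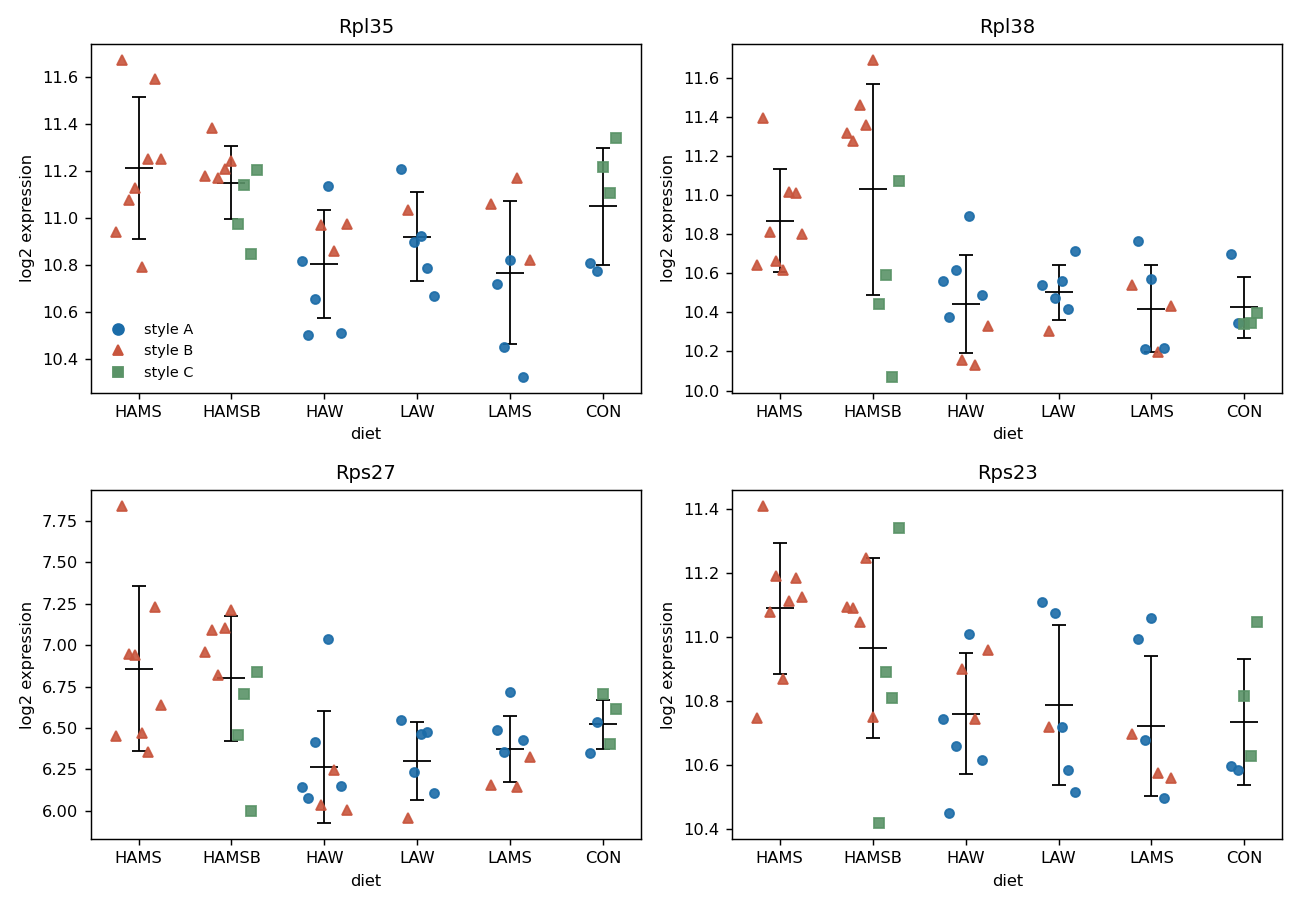
Log2 expression of Rpl35, Rpl38, Rps27 and Rps23 on each array by diet, with the mean and SD of each diet as bars and the marker shape giving the name style. In HAMSB the 5 style B arrays of Rpl38 lie at 11.27 or above and the 4 style C arrays at 11.07 or below.

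HAMSB against HAMS, 2 diets that differ by the butyryl group on the starch, showed 1 changed member. Rpl8, a core protein beside the peptidyl transferase centre, ran from 11.07 through 11.33 to 11.55 in HAMSB rats, against 11.30, 11.66 and 11.96 in HAMS rats, and fell by 0.32 ± 0.09 (adjusted p = 0.0128 with limma). Among all genes 14.5% rose and 2.58% fell. The median over the members was 0.02, with 0.03 for the large and −0.01 for the small subunit, against 0.07 over all genes.

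Rpl8 fell by 0.35 with the name style as a block, and 7 more members passed in HAMSB against HAMS. Rpl38 (0.43), Rpl23 (0.31) and Rpl34 (0.27) rose, while Rpl6, Rpl4, Rpl5 and Rps3 fell by between 0.21 and 0.37. Rpl4 lines the exit tunnel, and Rpl5 carries the 5S RNA. In that fit 19.6% of all genes rose and 11.2% fell. Style B alone, with 5 HAMSB and 8 HAMS rats, gave 4 that rose and 4 that fell, against 12.5% and 6.27% of all genes.

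HAW against HAMS sets high-amylose wheat against high-amylose maize and shares the HAMS arrays with the comparisons above. In it 10 members fell, 6 large and 4 small, and 0 rose, while 2.33% of all genes fell and 11% rose. All 26 small subunit genes and 37 of the 42 large ones had a negative difference, against 4222 of the 10828 genes tested. The median was −0.20 for the small and −0.15 for the large subunit, against 0.07 over all genes.

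Rps27 had 6.01, 6.14 and 7.03 as the lowest, median and highest value in HAW rats, against 6.35, 6.79 and 7.84 in HAMS rats, and fell by 0.59 ± 0.16 (adjusted p = 0.0186 with limma). Rpl35a fell by 0.46 ± 0.12, Rpl32 by 0.45 ± 0.12, Rpl36a by 0.42 ± 0.13, and Rpl13 and Rpl35 by 0.41 ± 0.12 each. Rps23 fell by 0.33 ± 0.11 and Rpl37a, a zinc finger protein of the large subunit, by 0.29 ± 0.10. The remaining ones were Rps29, which fell by 0.28, and Rps2, which fell by 0.17. No member had groups without overlap, against 0.129% of all genes. Markers of other cell types moved in this comparison too, in which 11% of all genes rose. Of the markers, 4 of 9 epithelial, 5 of 7 fibroblast and 1 of 7 smooth muscle genes rose. The median of the 9 lymphoid genes was −1.43, with 0 past the threshold. Their part in the result was not tested beyond the fits with the lymphoid level given further on.

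Under the block for name style 4 members fell and 2 rose in HAW against HAMS, against 2.95% and 4.49% of all genes. The median over the members was then −0.03, against 0.04 over all genes, and 30 of the 68 differences were positive. Rps27 (−0.69), Rpl38 (−0.48), Rpl30 (−0.38) and Rps3 (−0.34) fell, and Rpl39 (0.48) and Rpl41 (0.45) rose. Style B alone, 3 HAW and 8 HAMS rats, gave 0 members and 1 gene in all with limma, and 9 members had an unadjusted p under 0.05.

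In the other comparisons 0 members and 0 genes passed in limma without a block. For LAMS against CON, 0 of the 68 genes and 935 of all genes had an unadjusted p under 0.05, and the members' median was −0.05, against −0.04 over all genes. Rpl35 had the smallest p there, with a difference of −0.28 and a 95% interval of −0.57 to 0.00. It had 10.81, 10.77, 11.22, 11.11 and 11.34 in the CON rats, and the LAMS range of 10.32 to 11.17 overlapped them. All 68 genes overlapped between these diets, while 1.21% of all genes did not. Rplp2, a stalk protein that recruits elongation factors, and Rpl10a had differences of −0.21 each.

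For HAW against LAW, which asks about amylose in wheat, 0 members and 209 of all genes had an unadjusted p under 0.05. The smallest p-values belonged to Rps3 (−0.18, 95% interval −0.36 to 0.00), Rpl39 (0.37, −0.02 to 0.75) and Rpl11 (−0.18, −0.39 to 0.03). Rpl11 is known to bind Mdm2 when ribosome assembly fails. The diets overlapped for all 68 genes, and 0.0185% of all genes did not overlap. For LAW against LAMS, 4 members and 188 of all genes had an unadjusted p under 0.05, led by Rpl39 (−0.57), Rpl31 (−0.32) and Rpl17 (−0.28), proteins around the exit tunnel. The members' median was −0.06, against 0.01 over all genes, and their diets overlapped, against 0.0277% of all genes without overlap. In the fits blocked on name style 0 members passed in these 3 comparisons, while 0.406% of all genes fell and 0 rose in LAMS against CON and 0 genes passed in HAW against LAW and LAW against LAMS. Members whose blocked p was under 0.05 before adjustment numbered 8 in LAMS against CON, 0 in HAW against LAW and 4 in LAW against LAMS.

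The difference between the amylose effects, that in wheat minus that in maize, was tested directly. It passed for 0 members and for 3 of all genes in limma, which is 0.0277% of them (0.00924% higher and 0.0185% lower), and 15 members had an unadjusted p under 0.05. Rps3 (−0.41 ± 0.13, adjusted p = 0.173), Rpl35 (−0.56 ± 0.18, adjusted p = 0.178) and Rps16 (−0.37 ± 0.15, adjusted p = 0.254) had the smallest p-values. The members' median was −0.12, against 0.06 over all genes. With the name style as a block Rpl39 rose (0.86) and Rps3 fell (−0.48), while 0.351% of all genes rose and 0.111% fell.

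Several members of known interest passed in no comparison. Rps6, the substrate of S6 kinase, had differences between −0.13 and 0.03 in the comparisons of diets and of −0.15 in that of the amylose effects. Rpsa, also known as the laminin receptor, lay between −0.11 and 0.05, and the X-linked Rps4x between −0.19 and 0.09. Of the stalk, Rplp0 lay between −0.16 and 0.14 and Rplp1 between −0.07 and 0.15. Rpl22 lay between −0.19 and 0.10, and its paralog Rpl22l1, which the rule leaves out, between −0.38 and 0.40.

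The lymphoid content of the tissue moved with the ribosomal protein genes within diets. The lymphoid level was the mean of 9 B cell and germinal centre genes of 16 listed. Of the 11 with a probe set, Ms4a1 and Fcer2 had too low a signal for the test, and the other listed genes were not analysed. The level ran from 5.30 through a median of 8.33 to 9.34 in HAMS, from 5.24 through 5.66 to 8.33 in HAMSB, from 5.32 through 5.57 to 8.98 in HAW, from 5.27 through 5.72 to 8.78 in LAW, from 5.29 through 5.39 to 8.83 in LAMS, and had a median of 5.51 with a highest value of 8.25 in CON. The mean was 7.74 ± 1.5 in HAMS and 6.52 ± 1.54 in LAMS rats (SD, n = 8 and 7). With limma 0 of the 9 genes passed in HAMS against LAMS, where their median difference was 1.31. In HAMSB against HAMS 2 fell, Spib (−1.64) and Cd37 (−1.60), against 2.58% of all genes.

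With the diets in the model, 29 members had a positive and 0 a negative slope on the lymphoid level (limma, adjusted p under 0.05), against 18% and 35.3% of all genes. With the name style as a block as well, 50 were positive, 26 large and 24 small, and 0 negative, against 17.7% and 38.8% of all genes, 56.5% together. Rps23 had the steepest slope, a log2 difference of 0.14 ± 0.02 per unit of the lymphoid level (SE, with the block), followed by Rpl35a (0.13 ± 0.02), Rps27 (0.12 ± 0.03), Rpl13 (0.12 ± 0.02) and Rps15 (0.12 ± 0.03). Rpl15 had the lowest, −0.02 ± 0.03. Within style A, 16 arrays, 37 members were positive, against 15.4% of all genes, and within style B, 19 arrays, 12 were, against 9.42%.

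**Figure D5:**
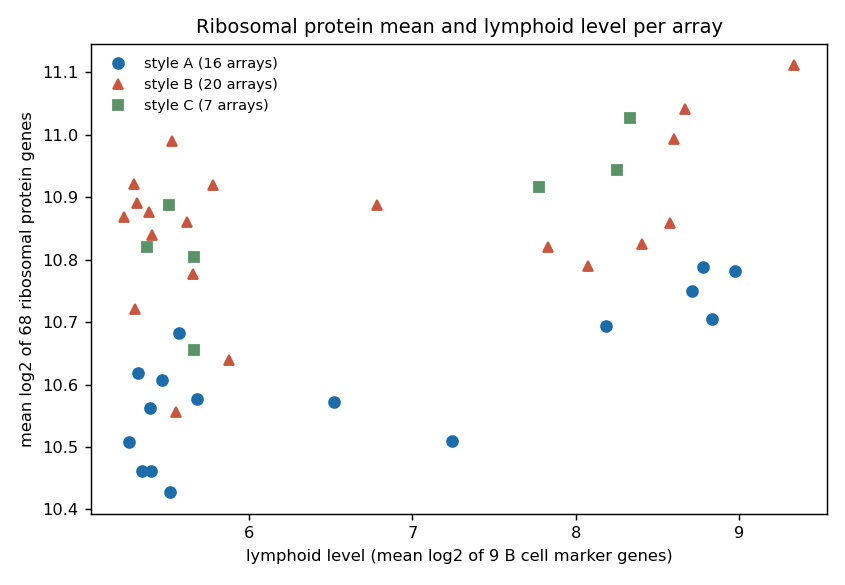
Mean log2 expression of the 68 ribosomal protein genes against the lymphoid level (mean log2 of 9 B cell and germinal centre genes) on each of 43 arrays, with markers by name style. At like lymphoid levels most arrays of styles B and C lie above those of style A, and the highest mean, in a HAMS rat, lies at the highest lymphoid level, 9.34.

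Described over the 43 arrays, the lymphoid level had r = 0.47 with the large and 0.38 with the small subunit mean within diets. Within diets and name styles, the large subunit mean had r = 0.77 with the lymphoid level and 0.81 with 8 T cell genes, and r = −0.73 with 9 epithelial, −0.64 with 7 smooth muscle and −0.63 with 7 fibroblast genes. With genes of dividing cells it was −0.51. For the small subunit the values were 0.73, 0.76, −0.70, −0.63, −0.55 and −0.53. The epithelial markers, which include Cdx2, Vil1 and Krt20, had mean levels of 9.39 to 10.83 on the arrays and were lower in HAMS (10.08 ± 0.45) than in LAMS rats (10.47 ± 0.27; SD). In HAMS against LAMS, where 12.1% of all genes fell, 2 of the 9 epithelial genes fell, Vil1 (−0.56) and Agr2 (−0.78). Of the 7 smooth muscle genes 1 fell, and 5 of the 7 fibroblast genes fell, Dcn (−0.87) the most. With the lymphoid level as a covariate, 0 members passed in HAMS against LAMS in limma, 12 had an unadjusted p under 0.05, and Rpl35 had a difference of 0.35. In that fit 1.27% of all genes rose and 5.89% fell. In HAMSB against LAMS 10 rose, against 4.52% of all genes, and in HAW against HAMS 1 fell, Rpl32, against 1.07%. In HAMSB against HAMS Rpl8 no longer passed and Rpl34 rose, against 3.28%. The part of cell content in the diet differences was not tested beyond these values.

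The spread of an array, the interquartile range of its values, also went with some members: 20 fell and 1, Rps3, rose with a larger spread, against 12.3% and 38.4% of all genes, 50.7% together. Rps19, Rpl41 and Rps13 had the steepest slopes. When the name style was a block as well, Rpl15 and Rpl18 rose with the spread and 0 members fell, against 34.6% and 7.53% of all genes. The spread was 3.01 ± 0.14 in HAMS, 3.12 ± 0.08 in HAMSB, 3.18 ± 0.23 in HAW, 3.22 ± 0.15 in LAW, 3.21 ± 0.09 in LAMS and 3.30 ± 0.05 in CON rats. Its part in the diet differences was not tested beyond the fits given here and under the processing alternatives.

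In the other genes of the translation pathway few passed the test, and the shares of all genes that rose and fell are 2.13% and 12.1% in HAMS against LAMS, 2.2% and 4.65% in HAMSB against LAMS, 14.5% and 2.58% in HAMSB against HAMS, and 11% and 2.33% in HAW against HAMS. These calls are without a block, and with so few genes they are not set apart from those shares. Of 17 tested genes of the translation machinery with known TOP mRNAs, 1 rose and 0 fell in HAMS against LAMS, Eif3h (0.25 ± 0.08), a subunit of initiation factor eIF3. In HAMSB against LAMS 0 rose and 3 fell: the elongation factor Eef2 (−0.28 ± 0.06), Eif3e (−0.50 ± 0.15) and Eif4b (−0.27 ± 0.09). In HAMSB against HAMS Eif3h (−0.22) and Hnrnpa1 (−0.49) fell, and in HAW against HAMS Eif3h (−0.24) and Tpt1 (−0.28) fell. The list's medians were 0.02, 0.03, −0.04 and −0.06 in these 4 comparisons, against −0.09, 0.00, 0.07 and 0.07 over all genes.

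Of 43 tested ribosome biogenesis genes, 1 rose in HAMS against LAMS, near the share of all genes. It was Gar1 (0.35 ± 0.10), a protein of the RNA particles that place pseudouridine in ribosomal RNA. Gar1 also rose in HAMSB against LAMS (0.35 ± 0.10) and fell in HAW against HAMS (−0.31), where Nhp2 of the same particles fell too (−0.36). Nucleolin, Ncl, fell in HAMSB against LAMS (−0.45 ± 0.14) with the RNA polymerase I subunit Polr1b (−0.53 ± 0.15). In HAMSB against HAMS 3 rose, Nop10 (0.31), Eif6 (0.33) and Sbds (0.39), and 3 fell, Ncl (−0.38), Mybbp1a (−0.36) and Ddx21 (−0.58). Eif6 keeps the subunits apart and Sbds helps to release it.

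Of 17 tested genes of the signalling to TOP mRNAs, 1 fell in HAMS against LAMS, a smaller share than that of all genes, the cap-binding protein Eif4e (−0.44 ± 0.13). In HAMSB against LAMS Eif4ebp2, which holds Eif4e back, rose (0.29 ± 0.08), and Pdcd4, an inhibitor of initiation factor eIF4A, fell (−0.53 ± 0.15). In LAMS against CON, HAW against LAW and LAW against LAMS 0 genes of these 3 lists passed in limma.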

How the data were processed

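RNA of the distal colon (100 ng per rat) was hybridised to Affymetrix arrays. The deposited table held log2 expression values for 29214 probe sets on 43 arrays, made by the authors; the submitters' processing notes name RMA, without a version, and the array scans were not used here. Of the probe sets 15310 had 1 gene symbol in the platform annotation, 323 several and 13581 none. The probe set with the highest mean was kept per symbol and tested if its median reached the 25th percentile of probe sets with 1 symbol. Values ran from 1.31 to 14.05. Arrays have no read depth, and the number of rats limits the precision.

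All 43 arrays entered 1 linear model, with a mean for each diet, in limma 3.58.1 in R 4.3.3 (lmFit, eBayes with the default prior), with two-sided tests adjusted by Benjamini and Hochberg over the 10828 genes tested and a threshold of 0.05. The fit was run on simulated data with independent noise per gene and no effect of name style or array. That run checks the fitting steps and does not bear on such effects. A difference of log2 values carries its SE, and p-values measure the spread between arrays, each from a different rat. The highest correlation between 2 arrays was 0.991, and no array was counted out. Named per comparison were up to 8 rises and 8 falls among the members that passed, or the 3 with the smallest p, together with 10 members named always (Rps27a had no probe set) and the 3 with the highest and lowest level and the largest and smallest SD; other members named were chosen after their values were seen. The members and the lists were chosen with earlier results of these data known. Alternatives were the filter, the prior, array weights, centring, a fit of the compared diets alone, name style, replicate number, lymphoid level and array spread in the model, the mean over probe sets, and leaving out each array. Replicate numbers gave no sign of pairing the rats. Over 94 pairs of the same number in different diets the correlations ran from −0.80 to 0.64, with a median of −0.05. Over 671 pairs of different numbers they ran from −0.78 to 0.86, with a median of 0.02. Ranges as wide as these cannot exclude a weak pairing. Plots were made in Python 3.11.15 with matplotlib 3.10.9.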

Additional observations from a re-analysis of the deposited data

Results flagged for a closer look

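In 108 groups of values, those of 13 genes and 5 array measures in the 6 diets, 9 had a highest or lowest rat that stood apart from the rest by Dixon's test, where chance flags about 1 in 20. HAW replicate 5 had the highest Rps27 (7.03, the next 6.42) and the highest Rpl8 (11.83, the next 11.44). HAMS replicate 5 had the lowest Rpl36a (10.30, the next 10.66) and the lowest Rps29 (12.05, the next 12.45) of its diet. CON replicate 5 had the highest lymphoid level (8.25, the next 5.68) and the highest Rpl37a (11.88, the next 11.77) among 5 rats, and CON replicate 1 the highest Rpl38 (10.70, the next 10.39). The array spread was lowest in HAW replicate 8 (2.68, the next 3.12) and in HAMSB replicate 5 (2.95, the next 3.07).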

How the results depend on the processing

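Members named by the rule that passed the test kept their sign under the alternatives run for them. Many of them did not pass in each alternative. Of 14 alternatives, the 8 genes of HAMS against LAMS passed in 4 to 8 each, with differences as low as 0.05. Those of HAMSB against LAMS passed in 8 to 13, those followed in HAW against HAMS in 6 to 9, and Rpl8 in HAMSB against HAMS in 12. Of those of HAMSB against LAMS, only Rpl38 passed with the name style block. Medians and several members that had not passed changed sign. Rps29 and Rps2 in HAW against HAMS, and genes of the other lists, were not followed through the alternatives. A robust trended prior and the mean over a gene's probe sets moved no count of members by over 1.5 times. Counts of members past the threshold, with rises and falls added together, moved under other settings as follows. In HAMS against LAMS (8) the count was 0 with array spread or lymphoid level as a covariate or in style B alone, 2 with the compared diets alone, 4 without the 2 arrays of lowest spread, 15 with arrays centred on their medians and 31 with array weights. In HAMSB against LAMS (4, all rises) it was 10 with the lymphoid covariate, 15 in style B alone and 36 with array weights. The 10 were all rises, and the 15 were 7 rises and 8 falls. In HAMSB against HAMS (1) it was 2 with the stricter filter or the compared diets alone. Centred arrays gave 3, array weights 4 and the spread covariate 5. With the name style block it was 8 (3 rises and 5 falls), as in style B alone (4 rises and 4 falls). In HAW against HAMS (10, all falls) it was 0 with the spread covariate, the compared diets alone or style B alone. The lymphoid covariate gave 1. It was 6 with no filter or with the name style block, 17 with centred arrays and 36 with array weights. With the block 4 fell and 2 rose, and of the 10 only Rps27 was among those 4. LAMS against CON (0) had 1, and the difference of amylose effects (0) had 14, with array weights, with medians there of −0.33 over all, −0.29 over large and −0.36 over small subunit genes; the name style block gave it 2. The F test (19) gave 48 with array weights, 10 with the spread covariate and 9 with the name style block. The lymphoid slope (29) passed for 50 members with the name style block and 12 in style B alone, and the spread slope (21) for 48 with centred arrays and 2 with the name style block. The causes were not tested.

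Some medians moved by more than the SD between rats of the mean over all 68 genes (0.184 in HAMS against LAMS and 0.179 in HAW against HAMS, averaged over the diets). With the name style block, those of the small subunit, which moved by less than the SD of the small subunit mean itself, were −0.0138 in HAMS against LAMS and 0.0046 in HAW against HAMS; in style B alone, HAMS against LAMS had −0.0492 over all and −0.10 over small subunit genes, and HAMSB against LAMS −0.0068 over both. The name style block and the lymphoid level were also fitted together. That fit was chosen after seeing the data, like the removal of the 2 arrays of lowest spread and the lymphoid slopes within 1 style. Its counts were 3 in HAMS against LAMS (all lower) and 12 in HAMSB against LAMS (9 higher, 3 lower). HAMSB against HAMS had 9 (all higher), LAMS against CON 1 and HAW against HAMS 2 (both higher). In this fit the difference of amylose effects had 1 and the F test 9. Its medians over all, large and small subunit genes were −0.12, −0.12 and −0.12 in HAMS against LAMS, 0.0792, 0.0704 and 0.10 in HAW against HAMS, and 0.0643, 0.0594 and 0.0679 in the difference of amylose effects, and 0.17 over small subunit genes in HAMSB against HAMS.

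Replicate numbers gave no sign of pairing the rats. With the replicate block, 2 members passed in HAMS against LAMS, 2 in HAMSB against HAMS and 6 in HAW against HAMS.

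Leaving out 1 array at a time gave 0 (without LAMS replicate 3) to 13 (without HAMS replicate 5) in HAMS against LAMS, 0 (without LAMS replicate 3) to 11 (without LAMS replicate 1) in HAMSB against LAMS, 1 to 4 (without HAMSB replicate 6) in HAMSB against HAMS, 1 (without HAMS replicate 2) to 17 (without HAMS replicate 5) in HAW against HAMS, 12 (without HAMSB replicate 2) to 25 (without HAW replicate 8) in the F test, 12 (without HAW replicate 8) to 21 for the spread slope, 23 to 30 for the lymphoid slope and 34 to 41 for the name style. The other comparisons stayed at 0. The HAMS against LAMS medians over all, large and small subunit genes were lowest without LAMS replicate 6, at 0.08, 0.06 and 0.12. That array also gave the lowest small subunit median in HAMSB against LAMS, 0.12. In HAMSB against HAMS the median over all ran from −0.03 (without HAMS replicate 5) to 0.05 (without HAMS replicate 2), and in LAMS against CON it was 0.00 without LAMS replicate 6. No name style had 2 arrays in all 4 diets of the amylose effects, which were therefore not fitted within a style. Style B had arrays in all 4 of these diets, but only 1 in LAW.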
